A study of Bos taurus with 24 samples.

Results

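The calgranulins S100A8 (ENSBTAG00000012640), S100A9 (ENSBTAG00000006505) and S100A12 (ENSBTAG00000012638) were followed through every library of a study of bovine monocyte-derived macrophages (MDMs). They are 3 of the 24616 genes listed, picked by their identifiers with results of these data already known, among them their response at 18 hours. Their levels and changes are therefore described with errors and without p values. The SE of fitted effects are approximate, as set out under the processing of the data. The MDMs were grown from blood monocytes of 6 lactating Holstein cows, 3 high and 3 low responders for nitric oxide (NO), the reactive molecule that activated macrophages make against bacteria. All cells were grown with 5 ng/ml of recombinant bovine GM-CSF, a growth factor of macrophages, for 6 days. At 3 and at 18 hours each cow had an untreated (control) well and a well with PFA-inactivated E. coli at a multiplicity of infection of 5 (exposed), which made 24 mRNA libraries in 8 conditions of 3. The labels name no other agent. The cow groups were classified by the NO response of their cultured cells, so that a phenotype here is a class of 3 animals, and each culture plate served 1 time point, so that plate and time cannot be told apart.

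Calgranulins are small calcium-binding proteins of myeloid cells, most abundant in neutrophils and monocytes and usually lower once monocytes have become macrophages. S100A8 and S100A9 pair as calprotectin, which holds zinc and manganese back from bacteria, and both proteins act as alarm signals through the receptor TLR4 once they are outside the cell. S100A12 also binds metals, and as a secreted protein it is a ligand of the receptor RAGE. In the bovine reference annotation of NCBI (ARS-UCD2.0), used for names and neighbours only, S100A8, S100A12 and S100A9 follow each other with S100A12 as the 1 gene between the other two.

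Expected counts, the numbers of read pairs estimated per gene, summed to between 6297190 and 20936554 per library (median 12375479.5). The 72 values of the 3 calgranulins ran from 17 to 28023, and the lowest of them has a 95% exact Poisson interval of 9.9 to 27.2, which covers counting error only. Levels of a gene are given as CPM, counts relative to the library size after TMM normalization, and levels of different genes are compared as TPM, the deposited relative abundances, which take transcript length into account. Wells are named by phenotype and by the number of the library code, and the control and exposed wells of a time point with the same number were taken as wells of 1 cow. The same number at 3 and at 18 hours need not mark the same cow. High responder code 94, for example, carries the letters I and J at 3 hours and A and B at 18 hours. The labels do not identify a cow across the times.

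The labelled cell type was checked with marker genes first. Of 7 macrophage markers, 4 had an identifier that could be matched (CD68, MSR1, AIF1 and LGMN), and their summed level was between 2291 and 7641 CPM in the 24 libraries. The sum was higher in control wells of high than of low responders, with means of 6848 and 3512 CPM at 3 hours and 5520 and 2988 CPM at 18 hours. The lysosomal protease LGMN alone averaged 4127 CPM in high and 1321 CPM in low responder control wells at 3 hours. Of 14 neutrophil markers, the granule genes LTF and PGLYRP1 could be matched, and their summed level was between 0 and 1.63 CPM, with PGLYRP1 at 0 in every library. LTF averaged 0.156 CPM in control wells and 1.02 CPM in exposed wells of the high responders at 18 hours, and 0.106 and 0.566 CPM in those of the low responders. At this very low level it rose with E. coli in high responders (log2 fold change 2.57, SE 0.84, adjusted p = 0.0232 by edgeR), though not on omission of code 93 (1.55) or with a library code term, which lets codes 91 and 92 differ from 93 and 94 in the effect (1.81, SE 1.60), and had 1.97 (SE 0.91, adjusted p = 0.0995) in low responders, a difference of 0.60 (SE 1.38) that did not pass. In the macrophage list at 18 hours, the scavenger receptor MSR1 fell with E. coli by log2 fold changes of -4.22 (SE 0.19) in high and -3.29 (SE 0.18) in low responders, CD68 had 0.62 and 0.60 and AIF1 had -0.65 and -1.25, while LGMN had -1.30 (SE 0.16) and 0.24 (SE 0.16). The lymphocyte marker CD79A, 1 of 9, was between 0.129 and 1.94 CPM. The monocyte marker VCAN, a matrix proteoglycan and 1 of 4, rose with E. coli in both phenotypes, by a log2 fold change of 2.52 (SE 0.20) in high and 3.15 (SE 0.21) in low responders at 18 hours (adjusted p = 4.65e-06 and 2.74e-06, edgeR's quasi-likelihood test). No dendritic cell marker, of 4, could be matched. In bulk RNA, fewer cells of a type and less RNA per cell cannot be told apart, and the part of a change in cell makeup in the calgranulin values was not tested.

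The level of each calgranulin was highest in the exposed wells of the high responders at 18 hours and second highest in the exposed wells of the low responders at 18 hours. S100A8, the first partner of calprotectin, was at 642, 1779 and 999 CPM in the high responder cows of codes 91, 93 and 94 exposed for 18 hours, against 2.54, 9.63 and 9.46 CPM in their control wells. In the low responders it was at 364, 174 and 959 CPM in the exposed wells of codes 91, 92 and 94, against 14.6, 14.8 and 43.4 CPM in the control wells. All exposed wells were above all control wells in both phenotypes, as they were in 27.5% of the 11759 tested genes in high and 25.9% in low responders, and the highest low responder well, code 94, overlapped with the exposed wells of the high responders. Averaged, S100A8 was at 1140 ± 582 CPM (SD, n = 3) in exposed high responders and 499 ± 409 CPM in exposed low responders at 18 hours. At 3 hours the order went on with 62.4 ± 60.4 CPM in exposed and 28.8 ± 25.8 CPM in control low responders, and the last 3 places were held by exposed high responders at 3 hours (23.96 ± 25.08 CPM), control high responders at 3 hours (11.5 ± 15.9 CPM) and control high responders at 18 hours (7.21 ± 4.05 CPM), with the control low responders at 18 hours (24.3 ± 16.5 CPM) just above them. Of the neighbours in this order, only the second and the third did not overlap.

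**Figure D1:**
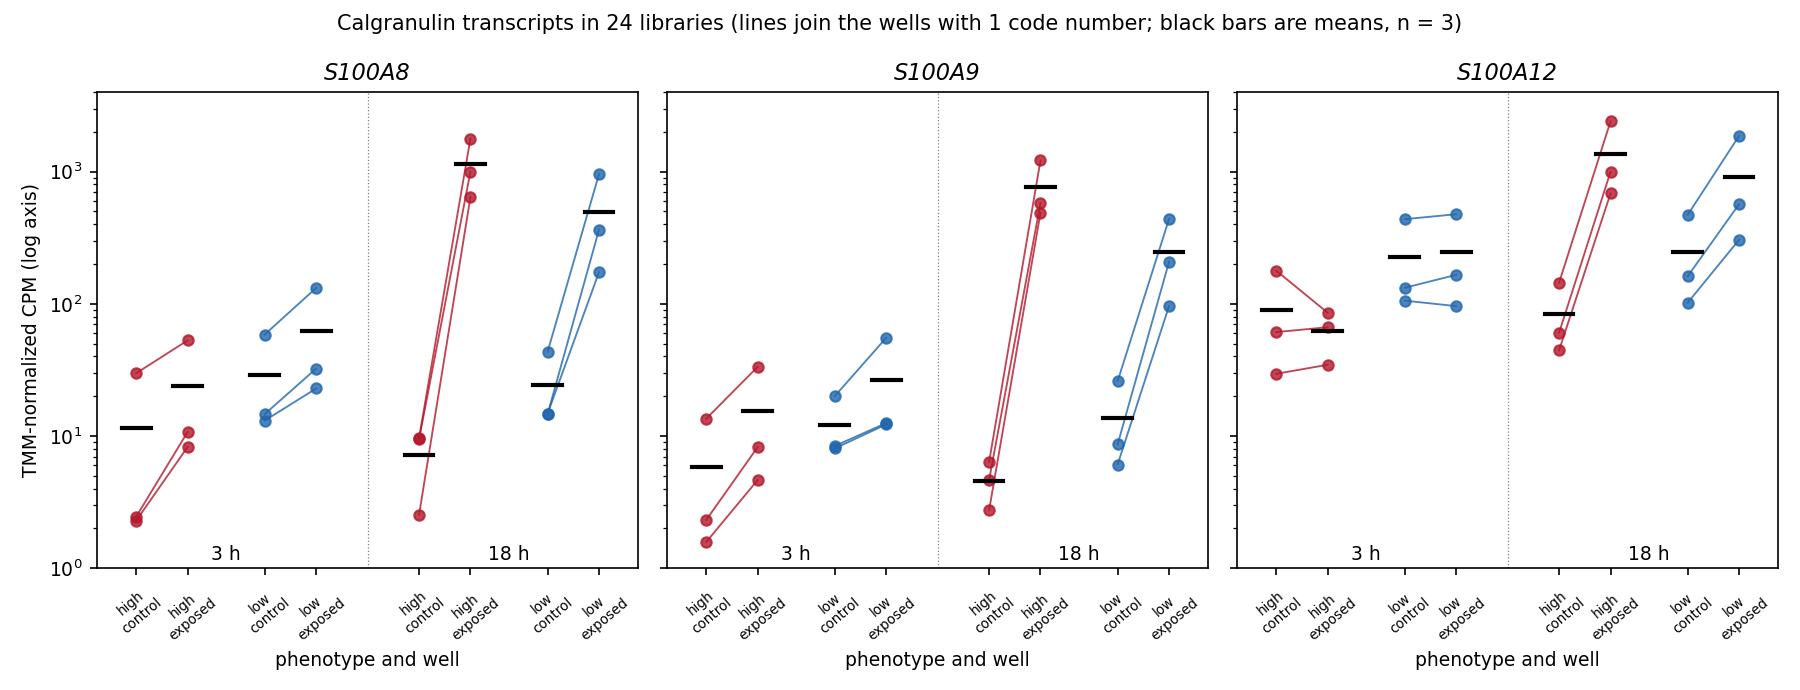
CPM of S100A8, S100A9 and S100A12 on a log axis in the 24 libraries, by phenotype (red high, blue low), well and time point; lines join the control and exposed well with the same code number and black bars are means of 3. Within each gene the steepest lines are those of the high responders at 18 hours, where S100A8 was between 2.54 and 9.63 CPM in control and between 642 and 1779 CPM in exposed wells.

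S100A9, the other partner of calprotectin, followed the same order at the top. In exposed wells at 18 hours it was at 488, 1216 and 578 CPM in the high responder cows of codes 91, 93 and 94, and at 208, 96.3 and 439 CPM in the low responder cows of codes 91, 92 and 94. The matching control wells were at 2.74, 6.35 and 4.63 CPM in high and at 8.66, 6.09 and 26.0 CPM in low responders. Here every exposed well of the high responders was above every exposed well of the low responders, and the control wells of the phenotypes overlapped. The means were 761 ± 397 CPM and 248 ± 175 CPM in exposed high and low responders at 18 hours, and the 6 other conditions lay between 4.58 ± 1.81 CPM (control high responders, 18 hours) and 26.7 ± 24.8 CPM (exposed low responders, 3 hours). The first and the second, and the second and the third condition of the order did not overlap, and all neighbours below did.

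S100A12 had the highest TPM of the 3 genes in every control well. Its control wells at 18 hours were at 60.4, 145 and 44.5 CPM in the high responder cows of codes 91, 93 and 94 and at 161, 102 and 471 CPM in the low responder cows of codes 91, 92 and 94. After exposure the same cows were at 996, 2398 and 683 CPM and at 567, 305 and 1863 CPM. The exposed wells of the high responders were all above their control wells, whereas in the low responders the lowest exposed well (code 92) was below the highest control well (code 94). The means ran from 1359 ± 913 CPM in exposed high responders and 912 ± 834 CPM in exposed low responders at 18 hours to 62.3 ± 25.8 CPM in exposed high responders at 3 hours, and no neighbours in the order of the 8 conditions were apart from each other.

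The response to E. coli at 18 hours was taken per cow as the exposed over the control well. S100A8 was 244-fold, 183-fold and 105-fold higher in the high responder cows of codes 91, 93 and 94, and 24.7-fold, 11.7-fold and 22.1-fold higher in the low responder cows of codes 91, 92 and 94. S100A9 was 172-fold, 188-fold and 122-fold higher in the same high responders and 23.8-fold, 15.6-fold and 16.8-fold higher in the low responders. S100A12 was 16.5-fold, 16.6-fold and 15.3-fold higher in the high responders and 3.51-fold, 3.00-fold and 3.96-fold higher in the low responders. For all 3 genes the least responsive high responder cow was thus above the most responsive low responder cow. Of the 11759 genes tested at 18 hours, 10.9% had this arrangement. Since the genes were picked with this contrast in view, nothing is read from the comparison with that share.

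**Figure D2:**
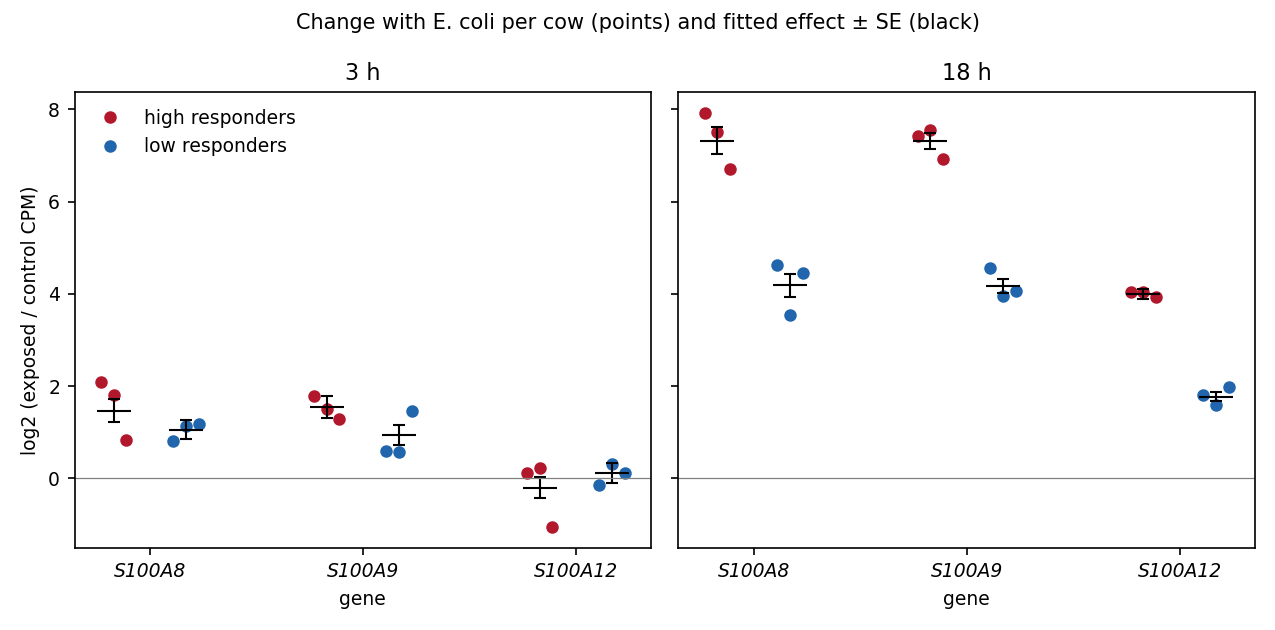
Log2 of exposed over control CPM per cow for each calgranulin at 3 hours (left) and 18 hours (right), high responders in red and low responders in blue; black marks are the fitted effects with their SE. At 18 hours the 3 high responder cows lie above the 3 low responder cows for every gene, and at 3 hours the phenotypes overlap.

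In the fit across all genes with a term for each cow, the log2 fold changes with E. coli at 18 hours in the high responders were 7.32 (SE 0.29) for S100A8, 7.32 (SE 0.17) for S100A9 and 4.0 (SE 0.11) for S100A12, which are 160-fold, 160-fold and 16-fold. In size from the top they had places 29, 28 and 143 of 11759 genes. In the low responders the log2 fold changes were 4.19 (SE 0.25), 4.17 (SE 0.15) and 1.77 (SE 0.097), or 18.2-fold, 18.0-fold and 3.42-fold, with places 89, 91 and 346. The high minus low differences were 3.13 (SE 0.34), 3.15 (SE 0.21) and 2.23 (SE 0.14) on the log2 scale. These SE were derived from the F statistics of edgeR's test and are only rough for effects of this size. In the whole table, 1.34% of the genes were called with a positive difference, that is, past a threshold of 0.05 on the adjusted p and of 1.5 on the fold change, and the calgranulins had places 20, 19 and 51 of all differences. Nothing is read from these places or that share, as the genes were picked with this contrast in view. Leaving out any 1 cow kept the difference of S100A8 between 2.80 and 3.49, that of S100A9 between 3.02 and 3.35 and that of S100A12 between 2.12 and 2.33.

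Both sides of the ratio moved in this difference. In the control wells at 18 hours the geometric mean of the high responders was 0.291 times that of the low responders for S100A8, 0.389 times for S100A9 and 0.369 times for S100A12, and in the exposed wells it was 2.66, 3.39 and 1.72 times. On the log2 scale the control wells were lower in the high responders by a difference of -1.78 for S100A8, -1.36 for S100A9 and -1.44 for S100A12, and the exposed wells were higher by 1.41, 1.76 and 0.78. Omission of any 1 cow, added after seeing the data, left these signs in place and moved the sizes: the control distance was between -2.11 and -1.14 for S100A8, -1.80 and -0.75 for S100A9 and -1.93 and -0.81 for S100A12, and the exposed distance between 0.82 and 2.05, 1.21 and 2.31, and 0.20 and 1.5. Without low responder code 94, the high responder level of S100A8, S100A9 and S100A12 was 4.15, 4.95 and 2.83 times the low responder level in exposed wells and 0.417, 0.595 and 0.569 times in control wells. Which of the distances was the larger depended on single cows in all 3 genes. The wells of the phenotypes did not overlap for S100A8 in the control wells and for S100A9 in the exposed wells, arrangements that 13.3% and 12.3% of the tested genes showed in the same direction. The 4 other sets of wells overlapped.

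At 3 hours the calprotectin genes were already higher in the exposed well of every cow, by much less. S100A8 in the high responder cows of codes 92, 93 and 94 was at 2.46, 2.29 and 29.9 CPM in control wells and at 10.7, 8.27 and 52.9 CPM in exposed wells. In the low responder cows of codes 91, 92 and 93 it was at 13.1, 14.7 and 58.6 CPM in control and at 22.9, 32.4 and 132 CPM in exposed wells. S100A9 in the same high responders was at 2.32, 1.58 and 13.5 CPM without and at 8.24, 4.65 and 33.4 CPM with E. coli, and in the low responders at 8.06, 8.42 and 20.0 CPM without and at 12.3, 12.5 and 55.4 CPM with it. A single cow in each phenotype was far above its group, so that the control and exposed wells overlapped in both phenotypes for both genes. Such a higher value in all 3 cows was seen in 25.6% of the 11264 genes tested in high responders and in 29.3% in low responders. The fitted log2 fold changes of S100A8 were 1.47 (SE 0.24) in high and 1.06 (SE 0.21) in low responders, and those of S100A9 were 1.55 (SE 0.24) and 0.95 (SE 0.22). The last value was 0.60 on omission of low responder code 93 and 0.54 with library totals alone in place of TMM. The high minus low differences at 3 hours were 0.41 (SE 0.32) for S100A8, 0.61 (SE 0.32) for S100A9 and -0.32 (SE 0.32) for S100A12. They were unsteady: omission of a cow put S100A8 between 0.21 (high responder code 92) and 0.90 (high responder code 94), took S100A9 up to 0.96 (low responder code 93) and turned S100A12 to 0.08 (high responder code 94), and S100A8 was at -0.01 without the term for each cow. No direction is read from them, and the changes per cow of the phenotypes overlapped for all 3 calgranulins (9.24% of the tested genes had all high above all low responder cows).

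S100A12 did not move with its neighbours at 3 hours. Its control wells were at 61.1, 29.6 and 178 CPM in the high responder cows of codes 92, 93 and 94 and its exposed wells at 66.5, 34.6 and 85.6 CPM, so that the exposed level was 1.09-fold and 1.17-fold the control level in codes 92 and 93 and 0.481-fold in code 94. In the low responder cows of codes 91, 92 and 93 it was at 106, 132 and 437 CPM in control wells and 96.1, 166 and 476 CPM in exposed wells. The fitted log2 fold changes were -0.20 (SE 0.23) in high and 0.12 (SE 0.22) in low responders, both smaller than their errors. Without the high responder cow of code 94 the first value was 0.22. The direction also rests on the scaling: relative to the library totals alone, without TMM, the median of all genes at 3 hours shifted by -0.45 in high and -0.40 in low responders, and S100A12 then had log2 fold changes of -0.65 and -0.29. In the deposited TPM it was lower in the exposed than in the control well of all 6 cows, between 0.487-fold and 0.841-fold. The share of all genes that were lower in TPM is not given, so no direction of S100A12 is read from this. S100A8 and S100A9 were higher in the exposed well of all 6 cows at 3 hours in TPM too, by between 1.10-fold (S100A9, low responder code 92) and 3.07-fold (S100A8, high responder code 92). In the exposed wells at 3 hours all high responders were below all low responders for S100A12, as in 10.3% of the tested genes.

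From 3 to 18 hours the high minus low difference grew by a log2 value of 2.82 (SE 0.53) for S100A8, 2.64 (SE 0.39) for S100A9 and 2.58 (SE 0.38) for S100A12 in the fit of all 24 libraries, which had a separate term for each pair of wells at each time and did not link the times by cow. In size these were places 39, 48 and 55 of 11905 genes, from which nothing is read, as the genes were picked with the 18 hours response in view. The control wells of S100A8 overlapped between the times: they were between 2.29 and 29.9 CPM (median 2.46) at 3 hours and between 2.54 and 9.63 CPM (median 9.46) at 18 hours in high responders, and between 13.1 and 58.6 CPM (median 14.7) and 14.6 and 43.4 CPM (median 14.8) in low responders.

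Single cows stood apart within a phenotype. In the low responders, the wells with the letters E and F in their library code were the highest for all 3 genes at both time points, in control and exposed wells alike. They held 58.6 and 43.4 CPM of S100A8 at rest, where the other low responder wells were between 13.1 and 14.8 CPM. In the high responders, the control wells with the letter I and the exposed wells with the letter J were the highest at both time points for all 3 genes. The S100A8 lead of the letter I at 18 hours was small, with 9.63 CPM against 9.46 CPM in the next control well. The labels do not say whether a letter marks a cow.

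Measured per length, the lead of S100A12 over S100A8 shrank with exposure in both phenotypes, and their order turned in high responders only. In control wells S100A12 was the most abundant, with a median S100A12 to S100A8 ratio of TPM of 7.75 at 3 hours and 9.23 at 18 hours in high responders and of 4.96 and 6.53 in low responders. In exposed wells at 18 hours the ratio was between 0.418 and 0.889 in high responders (median 0.797), so that S100A8 was the more abundant in all 3, and between 1.00 and 1.17 in low responders (median 1.03). The turn depends on transcript length. In CPM, S100A12 was still above S100A8 in high responder codes 91 (996 against 642) and 93 (2398 against 1779). Only in code 94 was it below (683 against 999). At 3 hours it was 3.28, 2.52 and 0.950 in the exposed wells of high responder codes 92, 93 and 94, the last of which was also below 1, and between 2.15 and 2.75 in those of the low responders. The ratio of S100A8 to S100A9 had medians between 3.29 and 5.26 in all 8 conditions and no such turn. At 18 hours exposed wells were above control wells by similar factors of TPM for S100A8 and S100A9 and by a smaller one for S100A12. At 3 hours the S100A12 TPM was lower in the exposed well of all 3 cows of each phenotype. That direction rests on the scaling. In CPM with TMM factors S100A12 was not lower in all 3 cows of either phenotype, an arrangement of 31.5% of the tested genes in high and 32.9% in low responders.

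**Figure D3:**
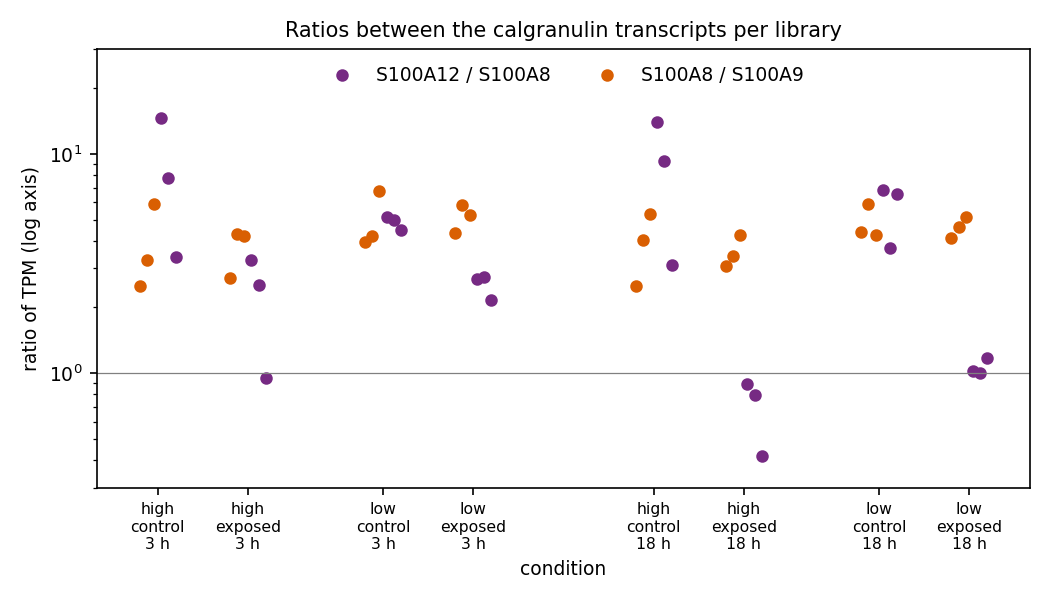
Ratio of TPM of S100A12 to S100A8 (purple) and of S100A8 to S100A9 (orange) in each of the 24 libraries on a log axis, 3 points per condition; the grey line marks equal levels. The first ratio is below the line in the 3 exposed high responder wells at 18 hours (0.418 to 0.889) and in 1 exposed high responder well at 3 hours (0.950), and the second stayed above it in all libraries.

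Together the calgranulins made up 0.0293%, 0.0700% and 0.0285% of all TPM without E. coli and 0.830%, 2.01% and 0.921% with it in the high responder cows of codes 91, 93 and 94 at 18 hours. In the low responder cows of codes 91, 92 and 94 the share went from 0.0894%, 0.0517% and 0.243% to 0.499%, 0.247% and 1.45%. By TPM, S100A8 was between the 13th and the 30th most abundant gene in the exposed wells of the high responders at 18 hours and between the 17th and the 142nd in those of the low responders. In the control wells at 18 hours it was between places 2119 and 5971 in high and between places 467 and 1378 in low responders.

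Transcript use was a measure that played no part in picking the genes. RSEM gives for each gene a mean transcript length weighted by the abundance of its transcripts, and 1 transcript was listed for S100A8, 2 for S100A9 and 2 for S100A12. For S100A9 it was 749.0 bases in all 3 control wells of the high responders at 18 hours, which held 40, 91 and 71 counts, and 672, 678 and 703 bases in the exposed wells of codes 91, 93 and 94, which held 6276, 14216 and 4804 counts. The wells did not overlap, with a mean difference of -64.4 bases (two-sided exact permutation p = 0.1, the smallest that 3 against 3 allows, adjusted p = 0.533 over 8 comparisons). The permutations did not keep the wells of a cow together. With so few wells the test could not pass a threshold of 0.05, so nothing is concluded from its p values. Of the 1135 tested genes with more than 1 listed transcript, 5.46% likewise had all exposed wells of these cows below all control wells, and 11.7% had no overlap in either direction. In low responders at 18 hours the means were 716 ± 12.7 bases in control and 704 ± 30.9 bases in exposed wells (SD, n = 3, exact permutation p = 0.6). The S100A9 lengths at 3 hours and all S100A12 lengths overlapped between control and exposed wells as well. Offsets for effective length in the fit gave a high minus low difference of 3.30 for S100A9 at 18 hours, against 3.15 without them.

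**Figure D4:**
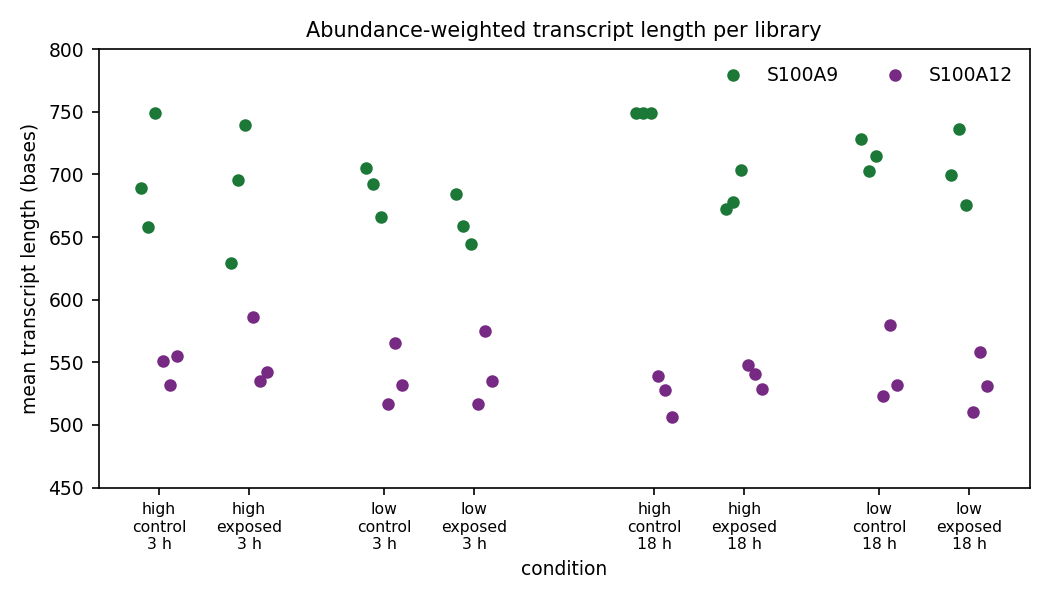
Abundance-weighted mean transcript length in bases of S100A9 (green) and S100A12 (purple) in each library, 3 points per condition. The 3 control wells of the high responders at 18 hours share the value 749.0 for S100A9 and lie above the exposed wells (672 to 703), while the points of the other conditions overlap.

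Across the 24 libraries the log2 CPM of S100A8 and S100A9 had a Pearson r of 0.991, those of S100A8 and S100A12 of 0.922 and those of S100A9 and S100A12 of 0.915. After subtraction of the mean of each condition r was 0.966, 0.839 and 0.889, and within the 12 control wells 0.973, 0.887 and 0.945. These are descriptions, since libraries share cows, exposure and depth. Among 11905 genes, S100A8 and S100A9 were each the closest to the other. Next for both came ANKRD22 (r of 0.951 with S100A8 and 0.969 with S100A9). ENO3, the muscle form of the glycolytic enzyme enolase, was among the 5 closest genes of all 3 calgranulins, with r of 0.944 with S100A8, 0.952 with S100A9 and 0.949 with S100A12, to which it was the closest. ENO3 averaged 7.63 ± 0.688 CPM in control and 149 ± 15.8 CPM in exposed high responders at 18 hours, and 15.5 ± 8.73 and 74.5 ± 41.1 CPM in low responders (SD, n = 3). ANKRD22 averaged 1.16 ± 0.447 and 60.9 ± 9.04 CPM in high and 1.82 ± 1.34 and 31.7 ± 15.3 CPM in low responders. The others of the 5 closest were DOCK9 and ENSBTAG00000020704 for S100A8, SH2D4A and ENSBTAG00000020704 for S100A9, and APOBR and ENSBTAG00000039732 for S100A12, all with r between 0.905 and 0.960. SH2D4A averaged 0 CPM in control and 11.2 CPM in exposed high responders at 18 hours, and ENSBTAG00000020704 0.156 and 17.4 CPM. Outside the exposed wells at 18 hours their means were at most 0.510 and 0.892 CPM. Their r thus rests largely on the exposed wells at 18 hours, and nothing further is read from it.

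The pathway around the calgranulins was read from 5 lists of 47 genes: other S100 genes, receptors and binding partners, subunits of the NADPH oxidase that calprotectin can feed with arachidonic acid, transcription factors of calgranulin genes and mediators made downstream of TLR4. An identifier could be matched for 14 genes, of which 13 passed the filter on low counts. The symbols of 11 of the 14 come only from a list of the study that is ordered by its own 18 hours comparison. Their difference between phenotypes at 18 hours is therefore no independent evidence. The counts and medians that follow come from the same selection, so nothing is read from their comparison with all genes. With E. coli at 3 hours, 8 of the 13 rose and 1 fell in high responders, beside 15.7% and 11.9% of all genes, and 8 rose and 1 fell in low responders, beside 9.93% and 7.78% (edgeR's quasi-likelihood test, adjusted p below 0.05 over all genes tested and fold change above 1.5). At 18 hours 8 rose and 2 fell in high responders, beside 17.1% and 22.5%, and 6 rose and 3 fell in low responders, beside 11.3% and 17.8%. The median log2 fold change of the 13 genes was 1.21 in high and 1.34 in low responders at 3 hours and 1.39 and 0.07 at 18 hours, where the medians of all genes were between -0.04 and 0.00.

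Among the S100 genes, S100A4, a cytosolic partner of myosin, moved opposite to the calgranulins at 18 hours. Control and exposed wells averaged 1123 ± 85.9 and 472 ± 49.0 CPM in high and 819 ± 25.8 and 484 ± 81.2 CPM in low responders (SD, n = 3), log2 fold changes of -1.27 (SE 0.11, adjusted p = 8.78e-06) and -0.79 (SE 0.11, adjusted p = 0.000286) in edgeR's test. S100A5 had an identifier and did not pass the filter.

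Of the receptors, TLR4 did not pass the thresholds in either phenotype at either time, with means between 193 and 260 CPM in the 8 conditions. CD14, which hands lipopolysaccharide to TLR4, fell in low responders at 18 hours (log2 fold change -1.08, SE 0.11, adjusted p = 4.02e-05 by edgeR) and had -0.42 (SE 0.11) in high responders, a difference of 0.66 (SE 0.16) that did not pass (adjusted p = 0.0663). MYD88, the adaptor protein behind TLR4, fell in all 4 comparisons with the control wells, with log2 fold changes between -0.96 and -0.66. It no longer passed on omission of high responder code 93 or low responder code 92 at 3 hours, or of low responder code 91 at 18 hours, nor in high responders at 3 hours with the library code term (-0.71, SE 0.23).

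In the NADPH oxidase, which makes superoxide, CYBB, the catalytic subunit, and NCF1, an organizing subunit, rose in both phenotypes at both times, although CYBB in low responders at 3 hours did not pass without the cow of code 91 or of code 92, on library totals alone (0.33, SE 0.15) or without the term for each cow (0.71, SE 0.33). At 18 hours the log2 fold changes of CYBB were 2.05 (SE 0.16) in high and 1.19 (SE 0.16) in low responders, and those of NCF1 were 2.11 (SE 0.16) and 1.19 (SE 0.16). Their differences between phenotypes, 0.87 (SE 0.22) and 0.92 (SE 0.22), did not pass (edgeR adjusted p = 0.0859 and 0.0722). NCF4, a further cytosolic subunit, was the 1 gene of the 13 whose difference passed at 18 hours in edgeR's test after the filter on low counts, against 6 with DESeq2 and 6 without that filter. In edgeR's filtered test 1.34% of all genes had a positive and 0.281% a negative call. NCF4 averaged 13.1 ± 4.13 CPM in control and 35.5 ± 12.9 CPM in exposed high responders and 11.9 ± 5.47 and 12.5 ± 7.62 CPM in low responders (SD, n = 3), a difference of 1.41 (SE 0.29, adjusted p = 0.0422). It did not pass in 7 of 14 alternatives, among them each omission of a low responder cow and of the high responder cow of code 91. At 3 hours the difference of none of the 13 passed, beside 0.178% of all genes called in either direction.

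The transcription factors CEBPD and HIF1A, known to act on calgranulin promoters, rose in both phenotypes at both times, with the larger log2 fold changes at 3 hours. CEBPD had log2 fold changes of 2.60 (SE 0.26) in high and 1.67 (SE 0.26) in low responders at 3 hours and of 1.33 (SE 0.09) and 0.94 (SE 0.09) at 18 hours. HIF1A had 2.08 (SE 0.16) and 1.38 (SE 0.16) at 3 hours and 1.48 (SE 0.11) and 0.97 (SE 0.11) at 18 hours. None of their differences between phenotypes passed.

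The mediators IL1B, IL6 and CXCL8, cytokines and a neutrophil attractant, had large changes at 3 hours already. IL1B rose by a log2 fold change of 6.98 (SE 0.59) in high and 7.20 (SE 0.58) in low responders at 3 hours and by 6.43 (SE 0.28) and 6.00 (SE 0.28) at 18 hours. CXCL8 had 4.90 (SE 0.31) and 4.24 (SE 0.30) at 3 hours and 5.08 (SE 0.22) and 3.96 (SE 0.21) at 18 hours. IL6 had its larger change early, with 6.49 (SE 0.37) and 7.08 (SE 0.39) at 3 hours and 2.15 (SE 0.42) in high and 0.07 (SE 0.54) in low responders at 18 hours, the last of which did not pass. The log2 fold change of IL6 was thus larger at 3 than at 18 hours in both phenotypes, and that of each calgranulin was larger at 18 than at 3 hours.

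**Figure D5:**
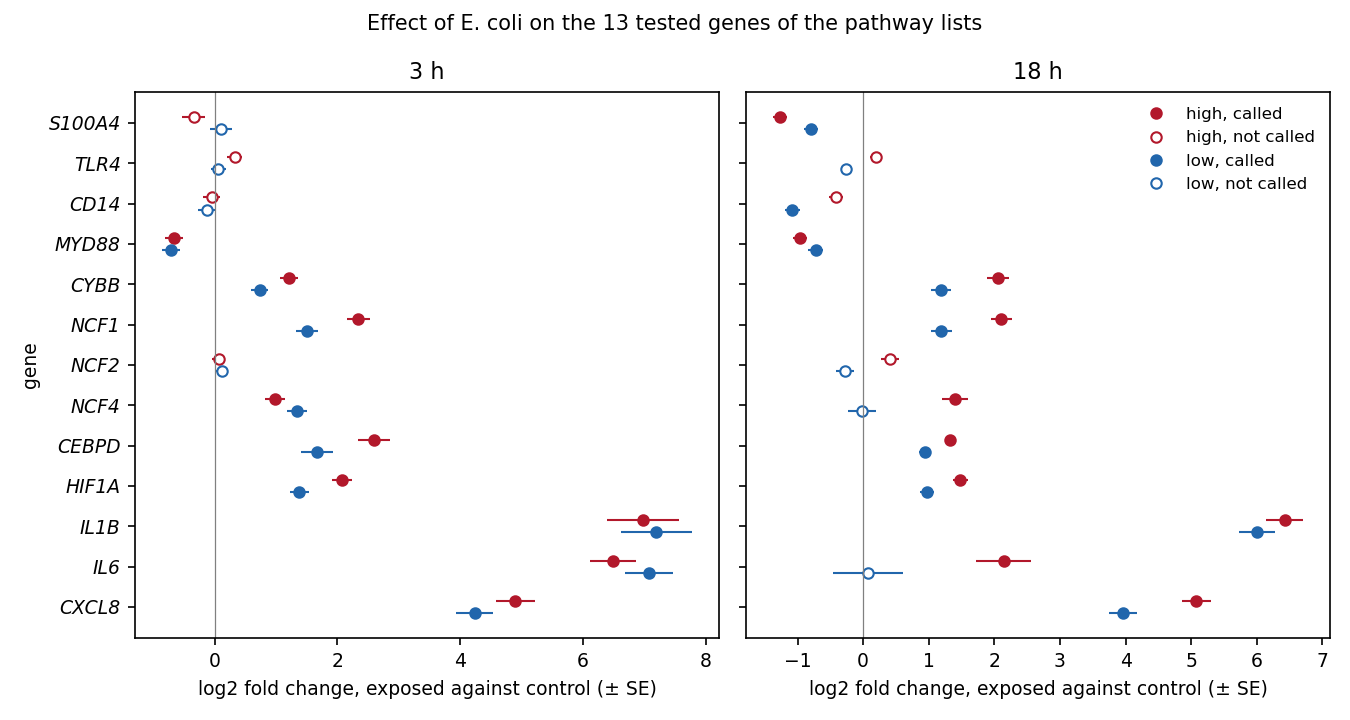
Log2 fold change with E. coli (± SE) of the 13 tested pathway genes at 3 hours (left) and 18 hours (right), in high (red) and low (blue) responders; filled points passed the thresholds and open points did not. IL1B stays near 6 to 7 at both times, IL6 is near 0 in low responders at 18 hours, and NCF4 at 18 hours is filled in high responders only.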

How the data were processed

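MDM libraries were stranded and sequenced as read pairs. The authors used Trimmomatic, STAR (genome UMD 3.1) and RSEM, whose tables give the deposited expected counts, TPM and mean transcript lengths. The expected counts, with 492 to 852 fractional genes in a library, are raw and were rounded to whole numbers. In R 4.3.3 with edgeR 4.0.16, TMM, edgeR's filter on low counts and its quasi-likelihood test were applied to each time point, with cow terms and an E. coli effect in each phenotype. Adjusted p values are Benjamini-Hochberg values over all genes tested. The SE of an effect was not estimated by the fit. It is the size of the effect divided by the square root of the test's F statistic. For large effects it is a rough guide only. IL1B at 3 hours had 0.59 in high and 0.58 in low responders and 0.66 for their difference, less than independent errors would combine to. Deviations from condition means correlated between 0.327 and 0.732 in the 12 pairs of wells with the same code number and between -0.568 and 0.00521 in 24 others, which is where the pairing comes from, since the labels do not state it.

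The members, lists and tests were chosen with earlier results of these data known. Named were the calgranulins, list genes called in a difference or largest in an effect, and the 5 genes most correlated with each calgranulin over the libraries. Symbols were matched for 2808 identifiers. Other size factors, filters, DESeq2 1.42.0, length offsets, no cow term, a library code term and omission of each cow were tried, and library totals alone were added after seeing the data. The 4 wells of a cow were split from its harvested flask culture, so replication is by cow. Sequences were not used here. The fits were also run on simulated data, in which cows differed less than they did in the calgranulin values. That run therefore says nothing about the errors of these values.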

Additional observations from a re-analysis of the deposited data

Results flagged for a closer look

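NCF4, a subunit of the NADPH oxidase, and LGMN, a lysosomal protease, had a response to E. coli at 18 hours that differed between phenotypes in edgeR's quasi-likelihood test of the difference itself. The high minus low log2 difference of NCF4 was 1.41 (SE 0.29, adjusted p = 0.0422, and between 0.000779 and 0.511 over 14 alternatives). The changes per cow were between 1.04 and 2.07 in the 3 high responders and between -0.32 and 0.25 in the 3 low responders. That of LGMN was -1.54 (SE 0.23, adjusted p = 0.0138, and between 2.44e-09 and 0.319 over 14 alternatives, of which it passed in 12). LGMN averaged 3169 ± 998 CPM in control and 1310 ± 456 CPM in exposed high responders and 1029 ± 351 and 1183 ± 59.3 CPM in low responders (SD, n = 3), the opposite order to the calgranulins in the control wells. The symbols of both genes come from the list ordered by the study's 18 hours comparison.

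In TLR4 at 18 hours and S100A4 at 3 hours, in CPM with TMM factors, every high responder cow moved one way and every low responder cow the other, an arrangement, in either direction, of 1.37% of the tested genes at 18 hours and 2.69% at 3 hours. Neither difference passed the test. TLR4 changed by log2 values between 0.11 and 0.34 in high and between -0.34 and -0.17 in low responders, a fitted difference of 0.45 (SE 0.12) with adjusted p = 0.0902 in edgeR's test. S100A4 changed by between -1.07 and -0.06 in high and between 0.07 and 0.14 in low responders, a fitted difference of -0.45 (SE 0.26, adjusted p = 0.514). The opposite directions did not hold in TPM, where both genes were lower in the exposed well of all 3 cows of each phenotype: by log2 values between -0.26 and -0.03 in high and between -0.48 and -0.36 in low responders for TLR4, and between -1.10 and -0.58 and between -0.46 and -0.35 for S100A4. On library totals alone TLR4 was lower in 2 of 3 high responder cows and S100A4 in all 3, and both were lower in all 3 low responder cows.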

How the results depend on the processing

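The 18 hours effects and differences of the 3 calgranulins kept their sign under every alternative run, omissions of cows included: apart from the omissions, the differences were between 2.94 and 3.21 for S100A8, 3.00 and 3.30 for S100A9 and 2.08 and 2.25 for S100A12. Library totals alone, chosen after seeing the data, gave log2 effects of 1.14 for S100A9 in high responders and of 0.66 for S100A8 and -0.29 for S100A12 in low responders at 3 hours, and at 18 hours 3.73 for S100A12 in high responders and 2.08 for its difference. The library code term gave 1.296 for S100A9 (3 hours) and 3.92 for S100A12 (18 hours) in high responders. The change with time was between 2.22 and 3.19 for S100A8, 2.26 and 2.84 for S100A9 and 2.15 and 2.82 for S100A12 when the control and exposed well of 1 code number were left out at 1 time point; wells of the same animal at the other time, which the labels do not identify, stayed in that fit.

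Counts of all genes called moved more. The difference at 3 hours was called in 20 genes, in 103 without a filter on low counts, 189 with DESeq2, 36 with length offsets, 9 with library totals alone and 0 with the library code term. On omission of a cow it was called in 0 (high responder code 93, or any low responder cow), 13 (high responder code 92) or 506 genes (high responder code 94). The difference at 18 hours was called in 190 genes, in 435 without a filter, 395 with DESeq2, 67 with the library code term, and on omission of a cow between 30 (low responder code 92) and 178. Without the term for each cow (no replicate block), the pairing of wells being dropped, it was called in 0 genes at 3 hours and 0 at 18 hours; by edgeR 330 and 1150 genes then had an unadjusted p below 0.05, and DESeq2 without that term called 19 and 121. With the library code term at 3 hours 835 genes, and 1171 in the omission of high responder code 93, had an unadjusted p below 0.05. Without the block the E. coli effect at 3 hours was called in 1824 genes in high and 829 in low responders, against 3113 and 1995. Library totals alone gave 4991 and 3619, the library code term 1678 in high responders, and omissions of cows between 932 (low responder code 92) and 2423 in low responders.

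Of the 13 pathway genes, 1 had a called difference at 18 hours, 6 without a filter and 6 with DESeq2, 0 without the block, 0 with the library code term and 0 with library totals alone. On omission of a cow the count was between 0 (low responder code 92 or 94) and 2 (high responder code 94). At 3 hours it was 0, and on such omissions between 0 and 2 (high responder code 94). Single list genes no longer passed in 16 cases, and in 12 more on omission of a cow, without a change of sign. The cause of these shifts was not tested. Depth limits S100A8 and S100A9 in control wells of the high responders, where counts were as low as 18 and 17.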
